A study of Mus musculus with 3 samples.

Results

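Of the 2112 regions that *PAM* ChIRP-seq gave with the odd probe pool in activated satellite cells (ASCs), 922 lay in 3′ untranslated regions (3′ UTRs) of protein-coding genes, and these regions are described here. A region was taken when its midpoint was on an exon of a protein-coding transcript in the GENCODE M1 annotation of mm9, beyond the last coding base of that transcript and outside the coding sequence of every other transcript. The rule used position alone and no score. The 3′ UTR regions made up 43.7% of the odd list (95% Wilson interval from 41.6% to 45.8%) and fell in 851 genes on 20 chromosomes. Because the annotation leaves the stop codon out of the coding sequence, the stop codon counts here as the start of the 3′ UTR.

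ChIRP-seq pulls an RNA down with biotinylated antisense oligonucleotides and sequences the DNA recovered with it. *PAM* is a nuclear lncRNA made from a super-enhancer, annotated as *Gm12603* on chromosome 4 from 88696212 to 88730518. ASCs are the cultured, activated stem cells of skeletal muscle, here sorted from hindlimb muscle of Tg:Pax7-nGFP mice, a strain that marks cells expressing the satellite cell factor Pax7 with nuclear GFP, and grown in serum with FGF. The age of the mice and how many were pooled are not given in the sources used here. Each pool received 100 pmol of probes with glutaraldehyde-fixed chromatin at 37 °C for 4 h and is represented by 1 library, and no other agent or genotype was compared. By the study's methods the lysate was divided before the probes were added, so both pools may come from the same cells. The values below therefore have no replicate error and no test between conditions. Intervals are taken over regions and cover counting error only. Read depth is unknown.

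A 3′ UTR is the part of an mRNA between the stop codon and the poly(A) tail. It is usually encoded by the last exon, and it holds binding sites for microRNAs and RNA-binding proteins that set the stability, translation and place of the mRNA. Near its end lies the polyadenylation signal, a hexamer that directs cleavage of the nascent transcript and addition of the tail. In the chromatin that ChIRP-seq is meant to recover, the 3′ UTR is ordinary exonic DNA at the downstream end of the gene.

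The 3′ ends of some of the genes with the highest-scoring regions are shown first, since the regions are placed against them below. Each line gives 30 bases of mm9 in the direction of the gene, with the polyadenylation hexamer in capitals. *Fn1* lies on chromosome 1 (minus strand, 71632099 to 71632128), *Sparc* on chromosome 11 (minus strand, 55208011 to 55208040), *Des* on chromosome 1 (plus strand, 75365125 to 75365154), *Bgn* on chromosome X (plus strand, 70741239 to 70741268), *Eef2* on chromosome 10 (plus strand, 80645207 to 80645236) and *Acta1* on chromosome 8 (minus strand, 126415679 to 126415708).
Fn1: gacaagtgttttAATAAAaagatttacatt
Sparc: caagtctttcaaAATAAAaagtaacaactt
Des: agaaatcaattgAATAAAatatgtatatgt
Bgn: agttgtctctcaATTAAAgaaacactgtgc
Eef2: aatcattggagtAATAAActacagtggttg
Acta1: aaaacttgaagcATTAAAgccagccattct

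The first base of these hexamers lay between 18 and 34 bases before the annotated transcript end. The near edge of the region was 510 bp upstream of the hexamer in *Fn1*, 334 bp in *Sparc*, 1113 bp in *Des*, 400 bp in *Bgn* and 222 bp in *Eef2*. In the high-scoring *Tmsb4x* and *Lrrc58*, whose 3′ ends are not printed, it was 149 bp and 5218 bp upstream. *Acta1* differed from these, with the hexamer inside its region. It has a 3′ UTR of 243 bases, shorter than the region itself, which extends 127 bases to either side of its midpoint.

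The deposited score is a whole number per region, of at least 4, whose unit is not stated. It was used to order regions within each list, and its size was not compared between pools. The 3′ UTR regions had scores from 4 to 81 with a median of 6, and the middle 50% ran from 5 to 9. Regions in coding sequence also had a median of 6. A score of 4, the lowest in the list, was found for 198 of the 922 regions (21.5%), for 158 of 607 regions in coding sequence (26%) and for 415 of all 1190 other odd regions (34.9%). The 3′ UTR share minus that in coding sequence was -4.55 percentage points (95% Newcombe interval from -8.98 to -0.224), and minus that in all others -13.4 points (from -17.1 to -9.56). Regions with the lowest score were thus less frequent in 3′ UTRs.

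Genes of the extracellular matrix and of the actin cytoskeleton headed the list. The highest score was on the last exon of *Fn1*, which encodes the matrix glycoprotein fibronectin, on chromosome 1 from 71632626 to 71632880 (coordinates as deposited). It scored 81 in the odd pool, and an even region with a score of 25 overlapped it by 17 bp. *Sparc*, a collagen-binding matricellular protein, followed with 72 on chromosome 11 from 55208362 to 55208616, and its even region, with a score of 22, began 8 bp away without overlapping. The regions of both pools thus lay side by side in the *Fn1* and *Sparc* 3′ UTRs, the even one closer to the transcript end in both. *Bgn*, the small matrix proteoglycan biglycan, scored 41 with no overlap, and even regions with scores of 15 and 9 flanked it at 21 and 108 bp.

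Cytoskeletal genes came next. *Tmsb4x*, the actin-sequestering thymosin β4, scored 56 on chromosome X from 163645193 to 163645447, with an even region of score 14 sharing 226 bp. *Des*, the muscle intermediate filament desmin, scored 45 and shared 215 bp with an even region of score 8. *Acta1*, skeletal muscle α-actin, scored 35 and shared 129 bp with an even region of score 11. *Tpm4*, a tropomyosin, scored 30 and shared 187 bp. *Pfn1* (profilin, an actin-binding protein) and *Vim* (vimentin) each scored 28 with even regions of score 7, which shared 176 bp and 216 bp. *Vim* had its midpoint 58 bases after the coding sequence in exon 9 of 9.

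The remaining 6 of the 15 highest were of mixed function. *Lrrc58*, a leucine-rich repeat gene, scored 48 and lay 2027 bases into a 3′ UTR of 7399 bases, with an even region of score 8 over 239 bp. *Thbs1*, the matrix protein thrombospondin 1, scored 29 and shared 141 bp with an even region of score 9. The translation elongation factor gene *Eef2* scored 38 and its nearest even region, with a score of 7, was 1559 bp away in coding sequence. *Pkm2*, pyruvate kinase of glycolysis, scored 33 in sequence with 2 copies in mm9 (counted as described further on), and the nearest even region was 3620302 bp away. *Timp2*, an inhibitor of matrix metalloproteinases, scored 31 on chromosome 11 from 118163079 to 118163333, with an even region of score 13 at a distance of 70 bp. *Ywhae*, which encodes a 14-3-3 adaptor protein, scored 27 and its nearest even region was 299868 bp away. In all, 9 of the 15 overlapped an even region, where 6.96% of the whole odd list did, and 3 more (*Sparc*, *Bgn* and *Timp2*) had one within 1000 bp.

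**Figure D1:**
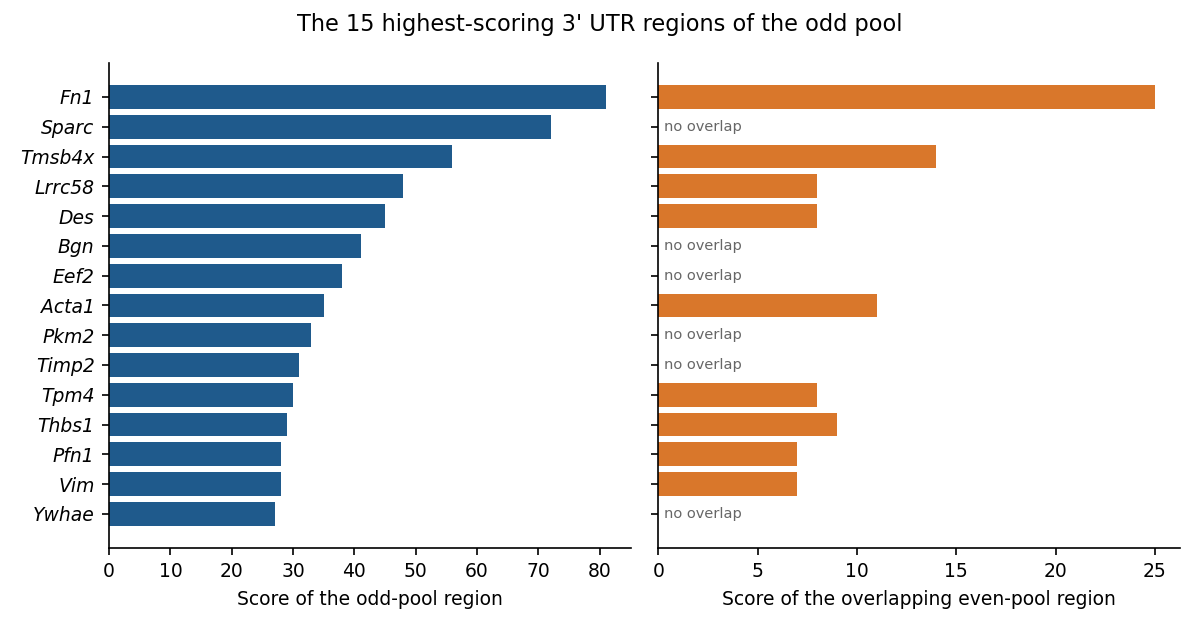
Scores of the 15 highest-scoring 3′ UTR regions of the odd pool (left, bars) and of the even-pool region that overlaps each (right, bars), 1 library per pool. *Fn1* is highest in both panels, with 81 and 25, and 6 of the 15 have no overlapping even region. The panels have separate axes because the scores of both lists may not be on 1 scale.

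The last exon of the transcript held 920 of the 922 regions, and 2 were on an earlier exon. Most genes held a single region. There were 783 genes with 1 region, 65 with 2 and 3 with 3, and no gene had more. The genes with 2 or 3 regions had a median 3′ UTR of 2072 bases, against 1404 in genes with 1 and 711 over all 21932 genes with an annotated 3′ UTR. No least length was set for these 21932, so a gene with only the stop codon past its coding sequence counts among them. Neighbouring regions in the same 3′ UTR (69 pairs) were 539 bp apart in the median, from 169 to 2864 bp, so no neighbours touched.

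The genes with 3 regions were *Lox* (lysyl oxidase, which cross-links collagen), *Adcy7* (an adenylyl cyclase) and *Tmem123* (a membrane protein). In *Lox* the midpoints lay 977, 1734 and 2410 bases into a 3′ UTR of 3161 bases, with scores of 12, 11 and 9. In *Adcy7* they lay 392, 991 and 1889 bases into 2147, each with a score of 7. In *Tmem123* they lay 66, 859 and 1443 bases into 2141, with scores of 8, 12 and 13. The regions were spread over these 3′ UTRs, and none of the 9 overlapped an even region, where 5.75% of all 922 did. *Gpc1*, a cell-surface heparan sulphate proteoglycan, held 2 regions with scores of 19 and 21, both overlapped by even regions with scores of 8 and 6. *Scd2*, a fatty acid desaturase, held 2 regions with a score of 26 each, the downstream one overlapped by an even region of score 9. *Sept2* held 2 regions with a score of 10 each, and no even region overlapped them. Over all genes with 2 or 3 regions, 14 of 139 regions overlapped an even region.

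**Figure D2:**
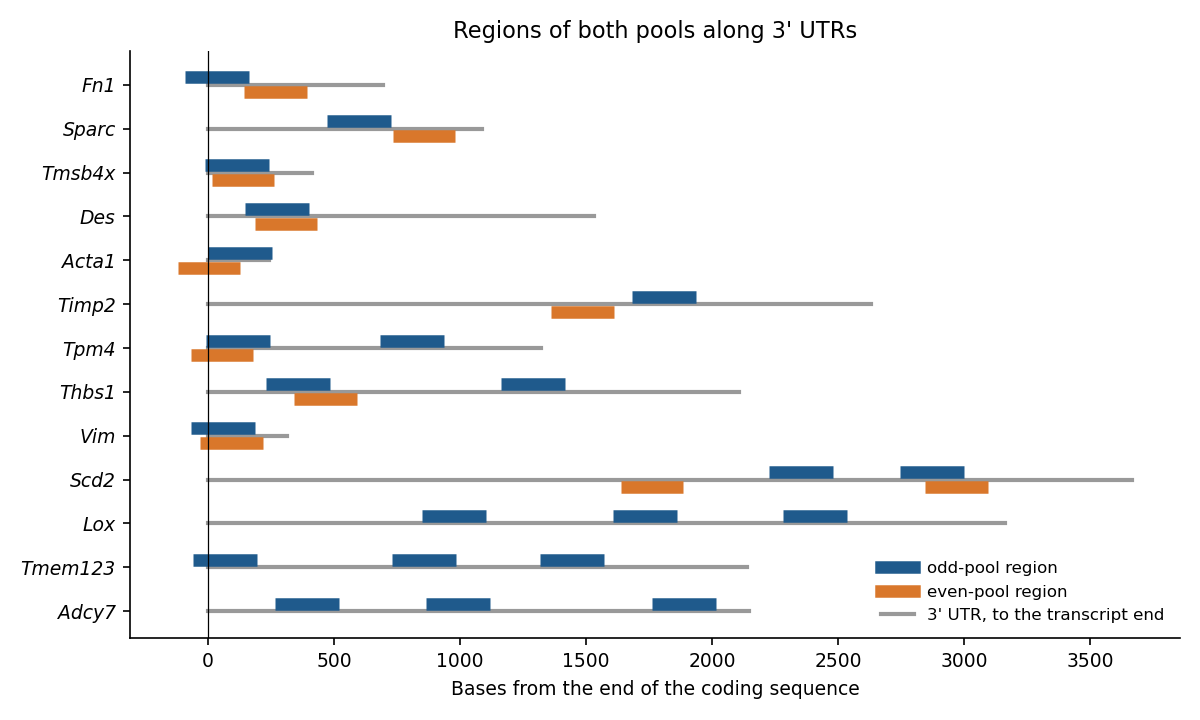
Odd-pool (blue) and even-pool (orange) regions drawn at full width along the 3′ UTRs of 13 genes, in bases from the end of the coding sequence. Genes were chosen after their values were seen, and the grey line ends at the annotated transcript end. In *Timp2*, *Sparc* and *Lox* the odd regions sit well inside the 3′ UTR, and in *Fn1*, *Tmem123* and *Vim* the first one reaches back over the end of the coding sequence.

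The position of the regions within the 3′ UTR was uneven. When each 3′ UTR was cut into 5 equal parts, so that length alone gives 20% in each, the parts from the stop codon to the transcript end held 26.8%, 23.0%, 23.9%, 18.2% and 8.13% of the 922 regions. The part next to the transcript end, with 75 regions, had a 95% Wilson interval from 6.54% to 10.1%. The part next to the coding sequence, with 247, had one from 24% to 29.7%. Regions were thus more frequent near the stop codon and scarce near the transcript end.

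Distances gave the same order. The midpoint lay a median of 463 bases after the coding sequence (95% interval of the median from 423 to 518) and 724 bases before the transcript end (from 690 to 765). Counted per kilobase of 3′ UTR at that distance, there were 1.48 regions in the first 100 bases after the coding sequence and 1.05 at 200 to 300 bases. Approached from the transcript end, there were 0.0588 regions per kilobase in the last 100 bases, 0.530 at 100 to 200 bases and 1.28 at 500 to 600 bases. Only genes with a region were counted here, most of them with 1, and only long 3′ UTRs reach the far bins. The count per kilobase would therefore fall with distance from either end even for evenly placed midpoints. The size of that fall was not computed. The boundary counts below take 3′ UTR length into account. The closest midpoint to a transcript end was at 81 bases, in *Ptma* (prothymosin α), in sequence with 4 copies in mm9.

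**Figure D3:**
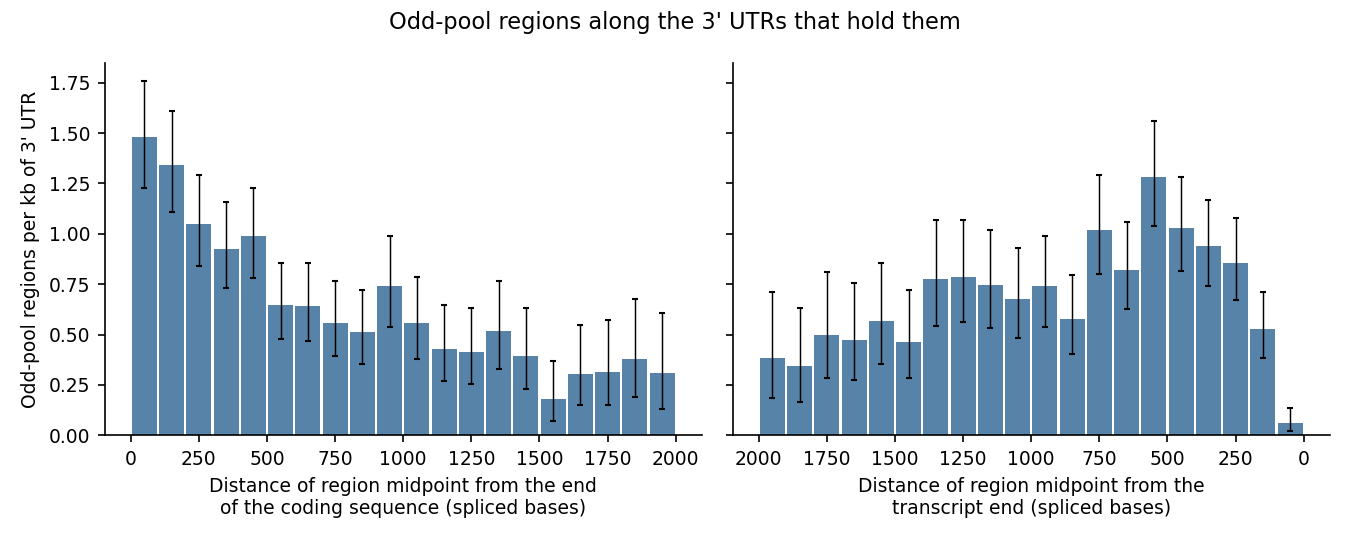
Odd-pool 3′ UTR regions per kilobase of 3′ UTR (bars, with exact Poisson intervals of the count) in 100-base bins of the distance of the midpoint from the end of the coding sequence (left) and from the transcript end (right, reversed so that the transcript end is at the right). The left panel falls from 1.48 in the first bin, and the right panel drops to 0.0588 in the bin at the transcript end. A fall with distance from either end is built in, because only genes with a region are counted and only long 3′ UTRs reach the far bins.

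A region whose midpoint is less than 127 bases from a boundary crosses it. Midpoints within 127 bases were counted at 3 boundaries, against the number that the lengths of these same 3′ UTRs give if midpoints fall evenly along them. At the transcript end there were 16 such regions (1.74%, 95% Wilson interval from 1.07% to 2.80%), where length gives 108 (11.8%). At the end of the coding sequence there were 157 (17%, from 14.7% to 19.6%), where length also gives 108. At the start of the exon, a splice site, there were 46 (4.99%, from 3.76% to 6.59%), where length gives 36.3 (3.94%).

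Regions at the transcript end were thus fewer than length gives, those at the end of the coding sequence more (155 of the 157 crossed it), and the interval at the splice site held the value from length. The 16 at the transcript end included *Acta1* with a score of 35, *Cfl1* (the actin-severing protein cofilin, with 2 copies of the sequence) with 17, and *Tuba1a* (an α-tubulin) with 9, and the remaining 13 had scores from 4 to 9. When the shortest annotated 3′ UTR that holds the midpoint was used in place of the longest, which was tried once the positions were known, the share at the transcript end was 5.31%, where length gives 14.7%. So the size of the deficit depends on which transcript end is used, and its direction did not change.

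The even pool had 107 regions in 3′ UTRs, 31% of its 345, a share lower than that of the odd pool (odd minus even 12.6 points, 95% Newcombe interval from 7.15 to 17.8). None of the 107 had its midpoint within 124 bases of the transcript end, where length gives 13.2, and the Wilson interval of this share ends at 3.47%. At the end of the coding sequence there were 23 (21.5%), where length gives 12.3%. The part of the 3′ UTR next to the transcript end held 18 of the 107 even regions (16.8%, from 10.9% to 25%), an interval that includes 20%. The odd share there minus the even share was -8.69 points (from -17.0 to -2.47). Both pools thus had few regions at the transcript end itself, while the share in the final part of the 3′ UTR was lower in the odd pool.

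**Figure D4:**
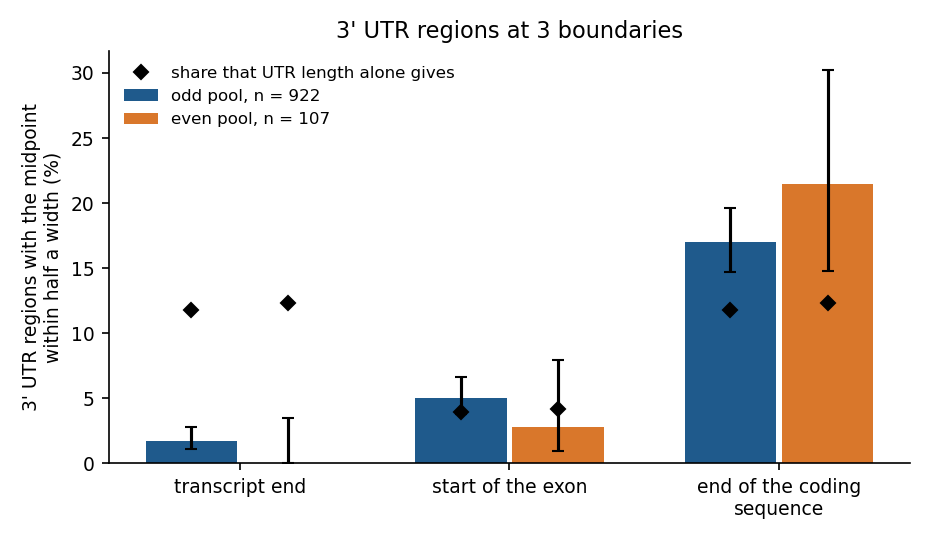
Share of 3′ UTR regions whose midpoint is within 127 bases (odd pool) or 124 bases (even pool) of a boundary, with 95% Wilson intervals. Diamonds give the share that 3′ UTR length alone gives. Bars stand below the diamonds at the transcript end (1.74% against 11.8% in the odd pool, 0 in the even pool) and above them at the end of the coding sequence.

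The polyadenylation hexamers AATAAA and ATTAAA were searched over the full width of each region, on both strands. At least 1 was present on the strand of the gene in 202 of the 922 regions (21.9%) and on the other strand in 257 (27.9%). As a comparison, a window of the same width was taken at the very end of the 3′ UTR for the 15670 genes whose 3′ UTR could hold it. There the hexamer was on the strand of the gene in 82.6% and on the other strand in 38.6%. AATAAA alone was in 13.6% of the regions and 68.4% of these final windows. Over all odd regions of the same width, 16% held a hexamer on the strand of the gene, or on the plus strand where no gene was annotated. The regions therefore had the hexamer on the strand of the gene less often than on the other strand, the reverse of the final windows.

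The regions had a median GC content of 44.9%, with the middle 50% from 38.3% to 51.6%, against 52.8% for odd regions in coding sequence and 40.6% for the final windows. The genome copies of each region were measured by counting in mm9 every stretch of 31 bases within it and taking the median. A median of 2 or more was found in 42 of the 922 regions (4.56%, 95% Wilson interval from 3.39% to 6.10%), in 8.90% of regions in coding sequence and in 25.8% of all other odd regions. The difference from all others was -21.2 points (95% Newcombe interval from -24.1 to -18.4). Regions in 3′ UTRs were thus mostly single-copy sequence, and of the 15 highest-scoring only *Pkm2* had 2 copies. Another gene was annotated on the opposite strand at 81 regions, and 13 lay in the 3′ UTRs of 2 genes, so their gene is uncertain.

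The probes were then compared with the regions, as a description of shared letters. The study lists 6 probes of 20 nt and does not say in the sources used here which of them formed each pool. The longest exact run that each region shares with any probe, on either strand, had a median of 7 bases and a maximum of 13. A run of at least 11 bases was found in 9 of the 922 regions (0.976%, 95% Wilson interval from 0.514% to 1.84%), in 1.18% of all odd regions and in 0.900% of the final windows. The interval included both of these shares. The runs above 11 bases are printed here because they are the best matches to a probe among these regions, with the shared bases in capitals, in *Aplp2* (an amyloid precursor-like protein, chromosome 9, minus strand, 30957941 to 30957970) and *Nid2* (the basement membrane protein nidogen 2, chromosome 14, plus strand, 20630528 to 20630557), each read on the strand of the gene.
Probe 5: acaaGTACTTCAGCTCCatg
Aplp2: atgtaagaGGAGCTGAAGTACattgtatgc
Probe 2: GCATTTTCAGTGggatcaca
Nid2: cacaagtgaGCATTTTCAGTGcagtgagac

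The *Aplp2* strand reads the complement of probe 5 over 13 bases, and *Nid2* reads as probe 2 over 12 bases. The other 7 regions each shared 11 bases with a probe. Both scored 7. The 15 regions with the highest scores are not among the 9.

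The regions of both pools were then set against each other. Of the 922 regions, 53 overlapped an even region by at least 1 bp, which is 5.75% (95% Wilson interval from 4.42% to 7.44%), against 6.96% over the whole odd list. An even region within 1000 bp was found for 95 (10.3%), against 10.6% over the whole list. Both shares were near those of the list as a whole. The difference from odd regions in coding sequence was -1.50 points for overlap (95% Newcombe interval from -4.19 to 0.975), which was not resolved.

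Overlap followed the odd score. It was found in 1 of 198 regions with a score of 4 (0.505%), 1 of 176 with 5 (0.568%), 7 of 306 with 6 to 8 (2.29%), 19 of 176 with 9 to 15 (10.8%) and 25 of 66 with 16 and above (37.9%, 95% Wilson interval from 27.1% to 49.9%). Regions in coding sequence had like shares at the same scores, with 11.7% at 9 to 15 and 41.7% at 16 and above. The 53 regions had a median odd score of 15, against 6 in the others, and their even scores ran from 4 to 25 with a median of 6. Across these 53 loci, which come from the same pair of libraries and are not replicates, the Spearman correlation of the scores was 0.823, given as a description.

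**Figure D5:**
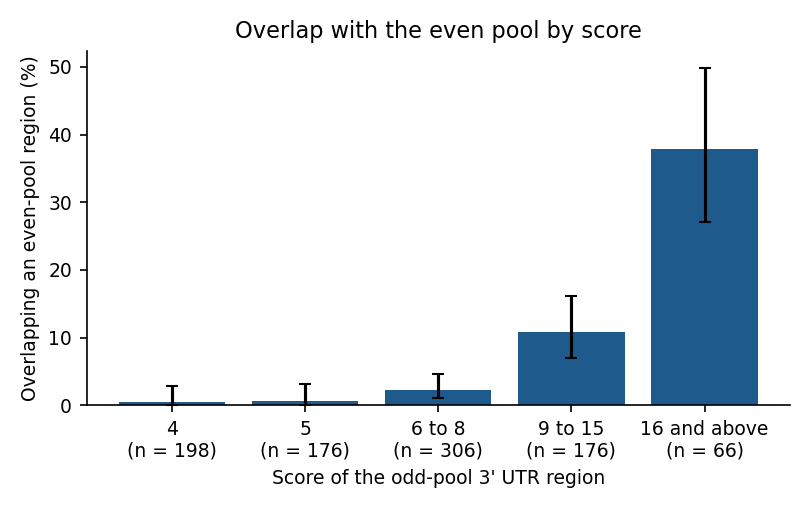
Share of odd-pool 3′ UTR regions that overlap an even-pool region (bars, 95% Wilson intervals), by the score of the odd-pool region. The share is 0.505% at a score of 4 and 37.9% at 16 and above.

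The pools were also compared by gene, here with the shorter even list as the base, so these shares are not comparable with those of the odd regions above. Of the 107 even regions in 3′ UTRs, 85 (79.4%) were in a gene that also held an odd 3′ UTR region, and 59 (55.1%) overlapped an odd region. Over the whole even list 147 of 345 regions did (42.6%), and of even regions in coding sequence 59.4%. The genes with both numbered 81, which is 9.52% of the 851 odd genes and 78.6% of the 103 even genes. Shares by gene were not computed for the other classes of region. In 31 cases the even region lay in the 3′ UTR of such a gene without overlap, at a median of 159 bp from the nearest odd region and at most 1289 bp. *Timp2* was of this kind, with the odd region on the side of the transcript end, whereas in *Sparc* the even region was on that side. *Cdkn1a*, an inhibitor of cyclin-dependent kinases, had an odd region of score 24 and an even region of score 11 at 218 bp.

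The highest even scores at the shared regions, after *Fn1*, included *Tmsb4x* with 14 and *Acta1* with 11, both described above. *Lars2*, a mitochondrial leucyl-tRNA synthetase, had an even score of 14 and an odd score of 12, in sequence with 2 copies. *2900073G15Rik*, the annotation's name for *Myl12a*, also had an even score of 14, with an odd score of 27. *Ptms* (parathymosin) had 13 and an odd score of 21, and *Acta2* (smooth muscle α-actin) had 10 and an odd score of 21. Regions of both pools in *Lars2*, *2900073G15Rik*, *Ptms* and *Acta2* overlapped over 246, 247, 190 and 204 bp, so both pools gave nearly the same place.

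Gene lists, chosen with earlier results of these data known, were counted by how many members with an annotated 3′ UTR had an odd region in it. Over all 21932 such genes, expressed in ASCs or not and with a 3′ UTR of any length, the share was 3.88%. The lists were not tested against this share. Listed genes were matched by symbol, so a gene under another name in the annotation was not counted. The actin cytoskeleton and adhesion list had 24 of the 42 genes found by symbol (57.1%), with a median score of 14 over 29 regions. Besides the genes above it included *Zyx* (the focal adhesion protein zyxin) with 27 and *Flna* (the actin cross-linker filamin A) with 14. *Myl12a* is also on the list, but the annotation names it *2900073G15Rik*, and its region with a score of 27 is not in the count. The matrix structure list had 12 of 28 (42.9%), among them *Nid1* (nidogen 1) with a score of 18 and *Fbn1* (fibrillin 1) with 12. The matrix regulators had 12 of 30 (40.0%), among them *Serpinh1*, the collagen chaperone, with 17 in the odd and 5 in the even pool. Every other gene list below, the cell type markers aside, also stood above 3.88%, from 20.6% to 44.4%. The matrix lists did not stand apart from these, and the actin list had the highest share of the lists.

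The intermediate filament and linker list had 4 of 9 genes, and all 4 regions overlapped an even region, against 5.75% of all 922. They were *Des* and *Vim*, *Lmna* (the nuclear lamina protein lamin A) with 12 and an even score of 4, and *Macf1* (a cytolinker of actin and microtubules) with 8 and an even score of 4. Overlap followed the score, and *Des* and *Vim* were in the score range where 37.9% overlapped. The shares were 10.8% in the range of *Lmna* and 2.29% in that of *Macf1*. With 4 regions in a list chosen with results known, this is not read as a trait of these genes. The *Macf1* region was 8056 bases into a 3′ UTR of 8287 bases, close to the transcript end. The list of RNA-binding proteins and helicases had a region in 16 of 38 genes (42.1%), with a median score of 6 and none above 11. RNA-binding protein genes off the list could score higher, as *Pcbp1* did with 12. *Ddx5*, a DEAD-box RNA helicase, had a region with a score of 10 on chromosome 11 from 106642138 to 106642392, and no even region overlapped it. *Hnrnpk*, *Hnrnpa2b1* and *Srsf2*, RNA-binding proteins of splicing, each scored 11, *Hnrnpk* in sequence with 2 copies. This list had a median 3′ UTR of 1828 bases, the longest of the lists. None of its 18 regions overlapped an even region, against 5.75% of all 922, so 0 is near that share.

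The folding and secretion list had 7 of 21 genes (33.3%), led by *Calr* (the chaperone calreticulin) with 21 and *P4hb* (protein disulfide isomerase) with 18. The translation list had 5 of 17 (29.4%), led by *Eef2*, followed by *Eif4g2* with 19 and *Eif5a* with 16. Glycolysis had 4 of 16 (25%), with *Pkm2*, *Tpi1* (14), *Aldoa* (8) and *Pgk1* (5), of which *Tpi1*, *Pkm2* and *Pgk1* were in sequence with 2 or more copies. The translation and folding lists had more genes with a region in coding sequence than in the 3′ UTR, 9 in each. So did the matrix structure list, with 13 against 12, while glycolysis and intermediate filaments had 4 of both kinds. Immediate early and short-lived transcripts showed the other order, with 10 of 36 genes (27.8%) in the 3′ UTR and 1 in coding sequence. The RNA-binding (16 against 6), matrix regulator (12 against 9), actin (24 against 20) and myogenic (7 against 6) lists also had more in the 3′ UTR. The odd list as a whole had that order too, with 922 regions in 3′ UTRs and 607 in coding sequence. The short-lived list included *Cdkn1a* with 24, *Ccnd3* (a D-type cyclin) with 12 and *Jund* (an AP-1 subunit) with 8.

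Of the satellite cell and myogenic list, 7 of the 34 genes found by symbol had a 3′ UTR region (20.6%). Beside *Des* these included *Myog* (the differentiation factor myogenin) with 14, *Chrna1* (an acetylcholine receptor subunit) with 11 and *Sdc4* (the heparan sulphate proteoglycan syndecan 4) with 11. *Mymk* is also on the list but was not found, because the annotation names it *Tmem8c*. *Tmem8c* had a 3′ UTR region with a score of 14, which is not in the count. *Pax7*, *Myf5* and *Myod1* had no region in the 3′ UTR. A region is not a level of expression, so the markers of cell types were only counted. Of 8 satellite cell markers, 2 had a 3′ UTR region, *Des* and *Vcam1*. The count was 0 of 8 for endothelial and 0 of 7 for immune markers, 1 of 8 for fibroblast or fibro-adipogenic markers (*Cd34*, with a score of 4) and 2 of 8 for pericyte or smooth muscle markers (*Pdgfrb* and *Notch3*). *Cd34* and *Notch3* are also on the satellite cell and myogenic list.

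By chromosome, the regions ranged from 24 to 90, the most being on chromosome 11. On chromosome 4, where *PAM* lies, there were 63 (6.83%, 95% Wilson interval from 5.38% to 8.65%), an interval that includes the 6.66% of annotated 3′ UTR bases found there. The nearest to *PAM* was in *Plin2*, a lipid droplet protein, with a score of 5 at 2.39 Mb. Of the 851 genes, 132 (15.5%) also had an odd region in coding sequence, *Fn1* and *Vim* among them. The share over all genes was not computed, so 15.5% is not read as high or low.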

How the data were processed

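PAM ChIRP-seq regions of the odd and even pools in ASCs were used, 1 library per pool. For the authors' lists, Bowtie2 placed unique reads on mm9 and MACS2 found peaks (versions not given in the sources used here). The deposited lists give each region a score, whose unit and normalization are not stated, so the depth is unknown and no filter was added. All regions of a list have the same width (127 bases to either side of the midpoint in the odd list, 124 in the even list). How peaks were brought to it is not given in the sources used here, and the boundary counts, overlaps and gaps rest on it. Starts were taken as 0-based. Positions used the transcript with the longest 3′ UTR at the midpoint. Shares have Wilson, differences of shares Newcombe, and medians order-statistic intervals, all at 95%, and the functions were tested on simulated data. No hypothesis test was run.

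The regions, gene lists and alternatives were chosen with earlier results of these data known. The boundary counts were added after the positions were seen. Named genes were the 15 regions with the highest odd score, the 10 with the highest even score, the 5 genes with the most regions, *Timp2*, *Vim* and *Ddx5*, and up to 4 per list. Others were named after their values were seen. Sequence was read with samtools 1.23.1 and pysam 0.24.0, copies were counted with numba 0.67.0, and tables and plots were made in Python 3.11.15 with pandas 2.3.3, SciPy 1.17.1, matplotlib 3.10.9 and NumPy 2.4.6. The input library was not used here.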

Additional observations from a re-analysis of the deposited data

How the results depend on the processing

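No paired analysis was possible because the odd and even pools were sequenced as single libraries, which also leaves no replicate to omit. Of 71 values under alternatives, 62 stayed within the interval of the reported value, or within 1.5 times a count. Taking scores of at least the median of the odd list left 548 regions and gave an overlap with the even pool of 9.31%. Leaving out the lowest score moved the median score to 7. The overlap was 4.34% with a reciprocal overlap of 50% and 10.3% within 1000 bp. The shortest 3′ UTR moved the median distance to the transcript end to 592 bases and the share of midpoints near that end to 5.31%. AATAAA alone was in 13.6%, and probe runs of at least 10 bases in 4.66%. Looser and stricter definitions count more or fewer regions by construction, and the cause of the other changes was not tested. The 5 alternatives for midpoints near the transcript end were chosen after seeing the data. Read depth is unknown, and no limit it sets on these counts could be computed.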

Other observations

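Other short motifs of 3′ UTRs were counted in the same windows. The pentamer ATTTA, the core of AU-rich elements, was on the strand of the gene in 283 of the 922 odd-pool regions (30.7%) and on the other strand in 29.0%, against 40.1% and 53.4% of the final windows of all genes. TGTANATA, the site of Pumilio proteins with N for any base, was in 29 regions (3.15%) on the strand of the gene and in 1.74% on the other strand, against 8.74% and 4.14% of the final windows. In odd-pool regions of coding sequence these motifs were in 9.88% and 1.15% on the strand of the gene. A motif is a match of letters and not a site. The base composition of the sets differs, as their GC contents show, and its part in these shares was not tested.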
